A study of Mus musculus with 6 samples.

Results

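Expression of 60 genes of mitosis and the spindle was compared between Brca2-depleted and control mouse pancreatic cancer cells. The genes were chosen by symbol from a list of mitotic kinases, checkpoint proteins, kinetochore proteins, kinesins, condensin subunits and their partners. All 60 were among the 10616 genes of the count table, and all 60 were tested. The cells were KPC cells, a line from a genetically engineered mouse model of pancreatic ductal adenocarcinoma, and both groups share this background. One group, shBrca2 (3 libraries), carried a lentiviral short hairpin RNA against Brca2, and the other, shControl (3 libraries), carried a control hairpin. Cells were grown in culture, viable cells were sorted by exclusion of propidium iodide, and 3′ end libraries were prepared from their poly(A) RNA. The labels do not state whether the 3 libraries of a group came from separate cultures or how many hairpin lines they represent. The p-values therefore measure only the spread between these libraries, which may be technical.

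Entry into mitosis is driven by CDK1 bound to cyclin A or cyclin B, with Aurora and Polo-like kinases acting on centrosomes, chromosomes and the spindle. The spindle checkpoint holds the anaphase-promoting complex inactive until every kinetochore is attached to microtubules, after which separase cleaves cohesin, the sister chromatids part and cytokinesis follows. Many of these genes are transcribed together late in the cell cycle, through promoter elements called CHR and CCAAT boxes that are read by the MuvB complex with MYBL2 and FOXM1 and by NF-Y. BRCA2 is known for its part in homologous recombination.

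Promoter sequences were examined first, because shared control elements are what the genes are best known for. RefSeq windows on GRCm38.p6, from 250 bases before to 50 bases after the annotated start, were found for 51 of the 60 genes. There was no entry for Ccna2, Cdc25c, Foxm1, Aurkb, Incenp, Tpx2, Spc24, Kif20a and Smc4. The upstream 250 bases are shown for the 5 genes with an unadjusted p under 0.05 that hold a motif in these bases. Capitals mark the CHR (TTTGAA or TTCGAA), the CCAAT box (CCAAT) and the E2F site (TTTCCCGC, TTTGGCGC, TTTCGCGC or TTTGGCGG), each searched on both strands, so that TTCAAA and ATTGG are reverse-strand matches.
Kif2c: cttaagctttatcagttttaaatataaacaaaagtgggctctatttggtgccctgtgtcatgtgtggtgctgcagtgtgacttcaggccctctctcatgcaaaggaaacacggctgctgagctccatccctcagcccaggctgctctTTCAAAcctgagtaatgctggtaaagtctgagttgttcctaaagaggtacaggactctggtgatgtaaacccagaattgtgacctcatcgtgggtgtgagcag
Kif23: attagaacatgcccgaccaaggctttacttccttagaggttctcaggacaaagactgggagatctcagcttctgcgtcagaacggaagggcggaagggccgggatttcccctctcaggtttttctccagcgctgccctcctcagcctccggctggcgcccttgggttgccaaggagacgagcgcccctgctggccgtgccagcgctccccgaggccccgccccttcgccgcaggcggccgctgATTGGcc
Bub1: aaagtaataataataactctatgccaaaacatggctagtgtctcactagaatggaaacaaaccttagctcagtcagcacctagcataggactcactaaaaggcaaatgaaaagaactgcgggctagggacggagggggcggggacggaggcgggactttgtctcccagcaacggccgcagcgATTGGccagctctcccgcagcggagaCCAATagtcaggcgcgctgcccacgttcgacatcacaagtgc
Cenpm: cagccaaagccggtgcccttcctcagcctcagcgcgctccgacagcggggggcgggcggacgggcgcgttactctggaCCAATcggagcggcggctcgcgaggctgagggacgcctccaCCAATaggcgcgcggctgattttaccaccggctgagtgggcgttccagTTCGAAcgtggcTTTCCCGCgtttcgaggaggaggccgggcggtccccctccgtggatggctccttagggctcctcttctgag
Espl1: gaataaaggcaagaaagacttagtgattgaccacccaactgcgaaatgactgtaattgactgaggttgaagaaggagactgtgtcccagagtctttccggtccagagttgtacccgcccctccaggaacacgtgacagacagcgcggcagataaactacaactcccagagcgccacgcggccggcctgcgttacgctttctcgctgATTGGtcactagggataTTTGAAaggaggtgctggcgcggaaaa

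The Kif2c stretch lies at chr4:117178773-117179022 on the minus strand, inside the outer limits of the gene, and holds 1 CHR. Kif23 is shown at chr9:61946800-61947049 on the minus strand, where a CCAAT box ends close to the start. The Bub1 bases, chr2:127831860-127832109 on the minus strand, hold 2 CCAAT boxes. Cenpm, at chr15:82244337-82244586 on the minus strand, holds 2 CCAAT boxes, 1 CHR and 1 E2F site. Espl1, at chr15:102296043-102296292 on the plus strand, has a CCAAT box followed closely by a CHR. Kif23 and Bub1 also hold a CHR after the annotated start, outside the printed bases. Anln, the other gene with a p under 0.05, holds a CHR only after the start and is not printed. These starts come from the annotation and may not be the ones used in KPC cells.

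A CHR was present in 38 of 51 members (74.5%), against 15.9% of the 8544 genes of the count table with a window and 21.7% of all 27025 genes with one. A CCAAT box was present in 37 of 51 (72.5%), against 43.2% and 41.1%. The S phase list came close to the members here, with 19 of 28 (67.9%), and the other mitotic lists had 61 of 113 (54%). Both elements occurred together in 33 of 51 members (64.7%), against 7.95% of the genes in the table. E2F sites were found in 4 of 51 members (7.84%), whereas 14 of 28 S phase genes (50%) held one. All 6 kinesin genes with a window held a CHR. The CHR was not found in the windows of Ccnb1, Cks2, Plk4, Birc5, Mad2l1, Pttg1, Cenpe, Cenpk, Nuf2, Knstrn, Nusap1, Tacc3 and Ncaph, which says only that these letters are absent there. Of 56 CHR matches in the windows of members, 42 (75%) began between 100 bases before and 50 bases after the start, against 41.4% of 7260 matches over all windows. Matches were counted for each window, so a site of a gene with several windows, such as Ect2, Prc1 or Bub3, can count more than once. No test was made of these shares, and a match is not shown to be a bound site. The letters of no motif contain those of another.

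**Figure D1:**
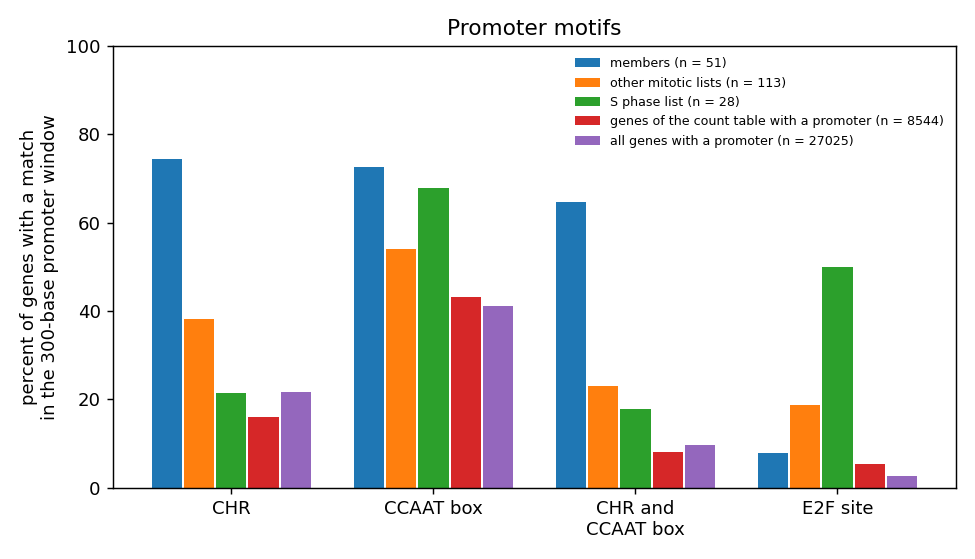
Bars give the percent of genes with at least 1 match to a motif in the 300-base promoter window, for the mitosis and spindle genes, for the other mitotic lists, for the S phase list, for the genes of the count table and for all genes with a window (n in the legend). The mitosis and spindle genes have the tallest bar for the CHR (74.5%), and the S phase list has the tallest bar for the E2F site (50%).

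Total counts ranged from 1519340 to 2452467 per library, and counts were divided by median-of-ratios size factors to give normalized counts. Brca2 itself was counted 10, 11 and 14 times in shBrca2 and 33, 52 and 33 times in shControl, a log2 fold change of -1.61 ± 0.44 (SE, adjusted p = 0.029, DESeq2). Without shBrca2 replicate 2 or 3, or without shControl replicate 2, Brca2 was not called (adjusted p = 0.152, 0.233 and 0.371). Epithelial keratins were abundant: the summed normalized counts of 8 epithelial markers ranged from 16604 to 17378 in shBrca2 and from 17462 to 18590 in shControl. Epcam was near the bottom of the table, with a mean of 5.23 ± 2.26 and 7.80 ± 1.66 normalized counts (SD, n = 3 each). Of 9 fibroblast markers 2 were in the table, with a summed level of 17.7 to 22.7 in shBrca2 and 13.8 to 42.4 in shControl. Immune markers in the table were 2 of 7, Cd68 and Cd14, with a summed level of 224 to 362 and 329 to 467, most of it Cd14. Endothelial markers were 0 of 5. The part of these other markers in the results was not tested.

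In shBrca2 cells the mitosis and spindle genes lay slightly below their shControl levels as a set, with no single gene passing the test. None of the 60 was called (adjusted p under 0.1, absolute log2 fold change over 0.5 and base mean over 5 in the DESeq2 likelihood ratio test), against 1.27% of the 9997 genes tested (0.5% lower and 0.77% higher in shBrca2). At an unadjusted p under 0.05 there were 6 of 60 (10%), against 8.66% over the table, 4 lower in shBrca2 (Kif2c, Kif23, Cenpm and Espl1, against 4.11%) and 2 higher (Anln and Bub1, against 4.55%). In this fit the share at this level was near the background, while with the GC trend removed it was 15.4%, against 9.34%. edgeR's quasi-likelihood test, over 59 of the genes (Cenpf was left out by its filter), called 1 (Kif2c), against 1.33% of the 9092 genes it tested, and put 11 of 59 (18.6%) under 0.05, against 14.5%. The log2 fold change, shBrca2 over shControl, was below 0 for 43 genes and above 0 for 17, so that 71.7% lay below 0, against 50.2% of all genes tested. The median was -0.13, against -0.0018 for all genes with a base mean over 5, and single genes ranged from -0.89 to 1.07. With the trend of each library on transcript GC content removed, the median was -0.24, against -0.02 for all genes with a base mean over 5, and 47 of the 60 lay below 0. Under TMM factors and under total counts as size factors, 43 lay below 0 in each. In 12 of 60 genes every shBrca2 library was below every shControl library, against 10.4% of genes tested, and in 2 of 60 every shBrca2 library was above, against 10.2%.

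The precision differed widely between the genes. The median standard error of the log2 fold change was 0.222, and for 44 of 60 genes the whole 95% interval lay within a 2-fold change in either direction. For 19 of 60 it lay within a 1.5-fold change. Base means ran from 5.17 normalized counts for Cenpf, a kinetochore protein of late G2 and mitosis, to 1520 for Ube2c.

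**Figure D2:**
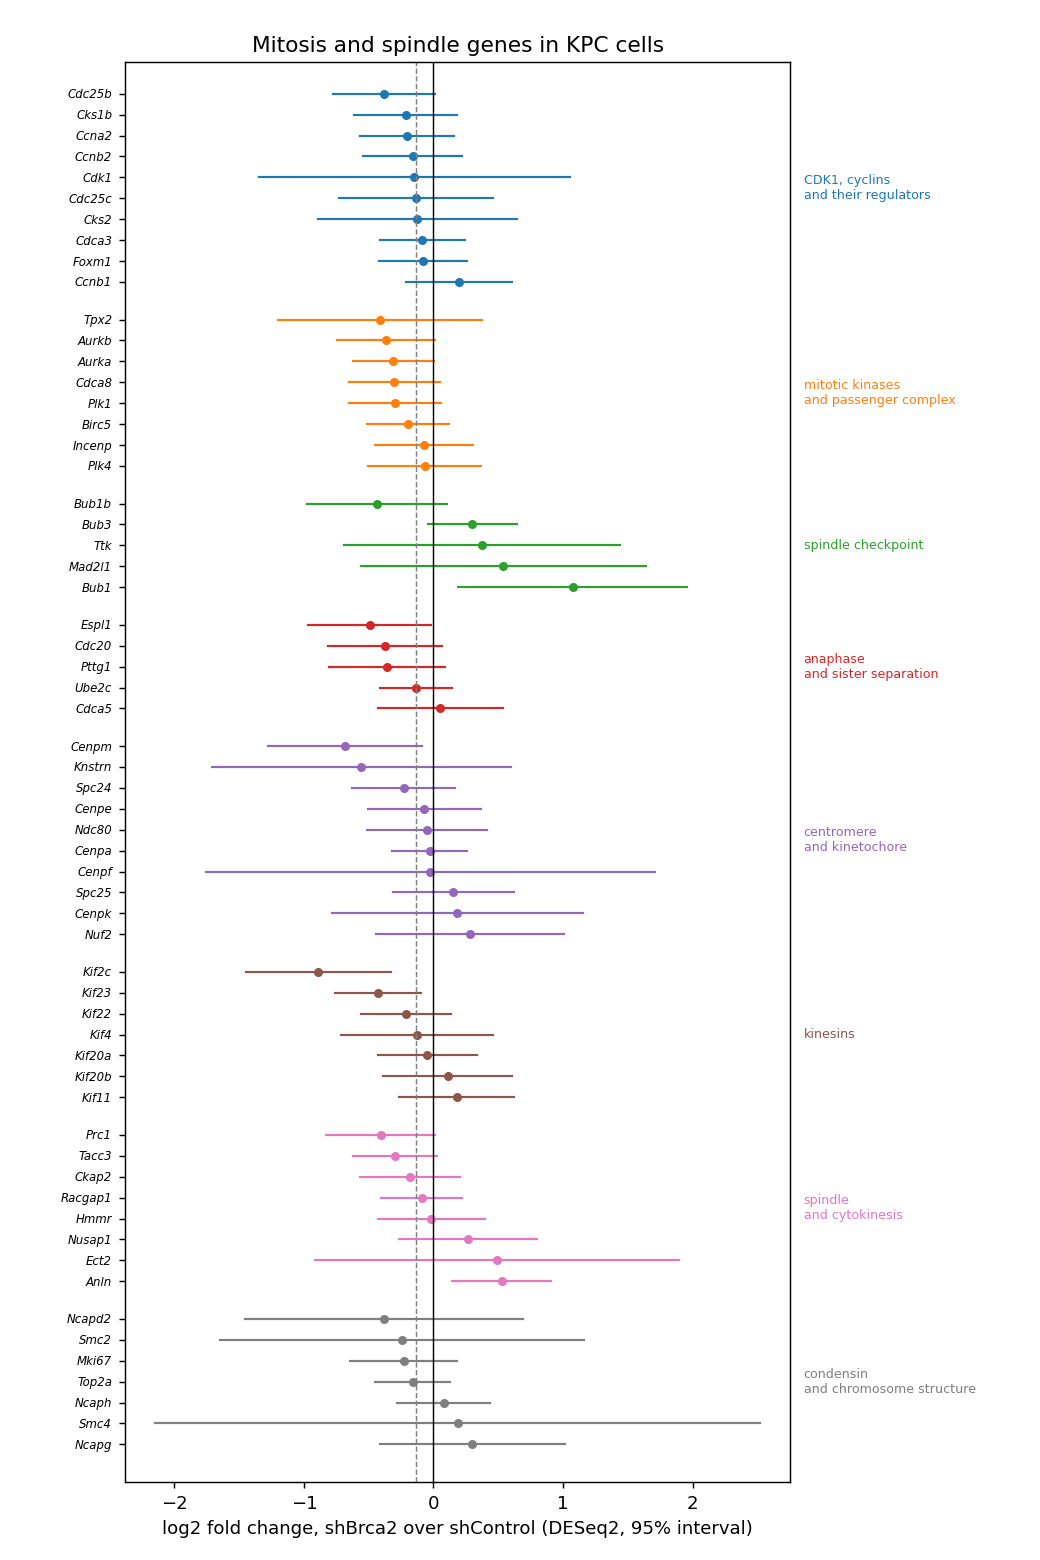
Points give the log2 fold change of each gene, shBrca2 over shControl, grouped by role and ordered within each role, with the 95% interval from DESeq2 as a line. The solid line marks 0 and the dashed line the median of the 60 genes (-0.13). All 8 genes of the kinase and passenger complex group lie left of 0, while 4 of 5 spindle checkpoint genes lie right of it.

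The 60 genes together took 0.641%, 0.652% and 0.642% of all counts in shBrca2 and 0.689%, 0.710% and 0.704% in shControl. The groups did not overlap, with means of 0.645 ± 0.00597% and 0.701 ± 0.0106% (SD, n = 3 each). The share weights abundant genes most, Ube2c, Cks1b and Top2a among them. In these bulk libraries fewer cells in mitosis and less RNA per mitotic cell cannot be told apart. By role, the shBrca2 libraries were all lower for the CDK1 and cyclin group (0.140 ± 0.00801% against 0.156 ± 0.00496%), for the kinases and passenger complex (0.0950 ± 0.00270% against 0.112 ± 0.00391%), for the kinesins (0.0508 ± 0.00242% against 0.0589 ± 0.000950%) and for the condensin group (0.0723 ± 0.00401% against 0.0798 ± 0.00191%). They were all higher for the spindle checkpoint, at 0.0467 ± 0.00199% against 0.0384 ± 0.00556%, but by a narrow margin. The lowest shBrca2 library was at 0.0452%, and the shControl libraries were at 0.0370%, 0.0445% and 0.0336%. For the anaphase, kinetochore and cytokinesis groups the libraries overlapped.

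**Figure D3:**
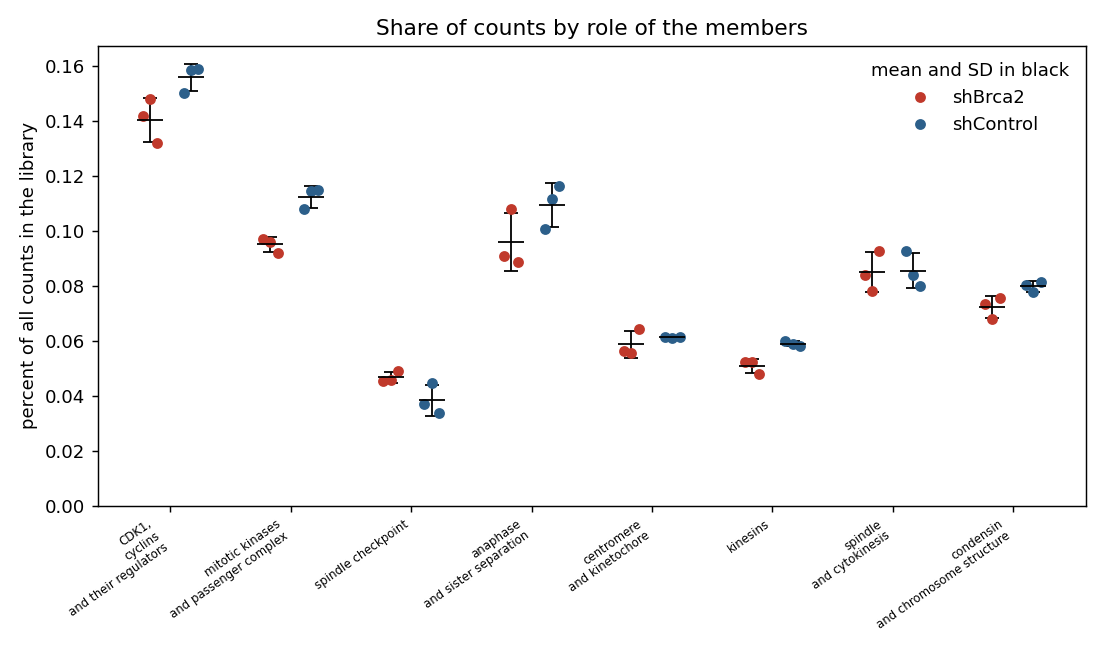
Points give the percent of all counts in a library that fell on the genes of each role, with the mean and SD of the 3 libraries of a group in black. The shBrca2 points lie below the shControl points in 4 roles and above them in the spindle checkpoint. In the other 3 roles the ranges of the groups overlap.

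Among CDK1, its cyclins and their regulators, 9 of 10 log2 fold changes were below 0 and the median was -0.14. Cks1b, a small CDK-binding subunit, was the most abundant, with 974, 1132 and 648 normalized counts in shBrca2 and 837, 1188 and 1169 in shControl. The groups overlapped, and the log2 fold change was -0.21 ± 0.20 (SE, adjusted p = 0.88), which was -0.01 without the third shBrca2 library. Cdc25b, a phosphatase that removes the inhibitory phosphates of CDK1, had 140.3, 181 and 152 against 181, 217 and 219.5. Its highest shBrca2 library was just under its lowest shControl library, and the log2 fold change was -0.38 ± 0.20 (adjusted p = 0.594). Ccnb1, the gene of cyclin B1, was the 1 gene of the group above 0, at 0.20 ± 0.21, which is named after its value was seen. Foxm1, the transcription factor that activates many of these genes, was at -0.08 ± 0.17 and Cdk1 at -0.15 ± 0.61, at a base mean of 10.8; both were chosen after their values were seen.

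All 8 genes of the mitotic kinases and the chromosomal passenger complex had log2 fold changes below 0, with a median of -0.30, and none was called. Aurka, the Aurora kinase of the centrosome and spindle poles, had 345, 347 and 329 normalized counts in shBrca2 and 381, 439 and 444 in shControl. The groups did not overlap and the log2 fold change was -0.31 ± 0.16 (adjusted p = 0.588). Birc5, which encodes survivin of the passenger complex and had the highest base mean in the group, had 485, 562 and 448 against 530.5, 555 and 629.8. These overlapped, with a log2 fold change of -0.20 ± 0.16 (adjusted p = 0.852). The count of genes below 0 was 8 of 8 under TMM factors, total counts and the GC correction, and 7 or 8 of 8 with each library left out.

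The spindle checkpoint genes had the highest median of the 8 roles, 0.38, with 4 of 5 above 0. Bub1, a checkpoint kinase of the kinetochore, had 53.1, 22.7 and 47.0 normalized counts in shBrca2 and 26.3, 22.6 and 8.90 in shControl. The second shBrca2 library was level with 2 of the shControl libraries, so the groups overlapped, and the log2 fold change of 1.07 ± 0.45 (95% interval 0.19 to 1.96) had an adjusted p of 0.402. Bub3, the partner that brings Bub1 to kinetochores, was the most abundant, with 459, 572 and 505 against 338, 453 and 457. Every shBrca2 library was above every shControl library, by a small margin, at a log2 fold change of 0.30 ± 0.18 (adjusted p = 0.688), which was 0.17 without the first shControl library. Mad2l1, the gene of the MAD2 inhibitor of the anaphase-promoting complex, had 253, 258 and 316 against 287, 212 and 70.2. The third shControl library was far below the other five libraries here, and without it the log2 fold change of Mad2l1 went from 0.54 to 0.15. Without that library the median of the role was 0.15, and without the first shControl library it was 0.96.

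Of the genes of anaphase and sister separation 4 of 5 were below 0, with a median of -0.36. Espl1, the gene of separase, the protease that cleaves cohesin, had 79.0, 94.5 and 107 normalized counts in shBrca2 and 109, 124 and 164 in shControl. The groups lay close without overlap, and the log2 fold change was -0.49 ± 0.24 (adjusted p = 0.554). Without the third shControl library Espl1 was at -0.31 (unadjusted p = 0.242, DESeq2). Ube2c, the ubiquitin-conjugating enzyme of the anaphase-promoting complex, was the most abundant of all 60 genes, with 1370.3, 1629 and 1346 against 1495, 1596 and 1684. The groups overlapped and the log2 fold change was -0.14 ± 0.14 (95% interval -0.41 to 0.14, adjusted p = 0.90). Cdc20, which activates the complex and was chosen after its values were seen, had 207, 324 and 172 against 311, 331 and 271. The second shBrca2 library stood among the shControl libraries, and without it Cdc20 was called at -0.69 (adjusted p = 0.0923). The median of the role without the third shBrca2 library was -0.19.

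In the centromere and kinetochore group 7 of 10 genes were below 0 and the median was -0.04. Cenpm, a subunit of the constitutive centromere network, had 42.2, 33.1 and 42.6 normalized counts in shBrca2 and 65.7, 57.0 and 66.2 in shControl. The groups were clearly apart, and the log2 fold change was -0.68 ± 0.30 (95% interval -1.28 to -0.09, adjusted p = 0.451). Cenpa, the centromeric histone H3 variant and the most abundant of the group, had 605, 566 and 641 against 606, 649 and 594. The libraries were mixed and the log2 fold change was -0.03 ± 0.15, within an interval of -0.32 to 0.26. Knstrn, which encodes kinastrin, had 5.45, 10.4 and 14.8 against 10.1, 20.1 and 15.8, and its log2 fold change of -0.56 ± 0.59 (adjusted p = 0.90) rested on few counts. With the GC trend removed the median of the role was -0.23, and without the first shBrca2 library it was 0.01.

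Kinesins held the lowest value of the 60 genes. Kif2c, the gene of the microtubule-depolymerizing kinesin MCAK (chr4:117159633-117182624, GRCm38.p6), was counted 31, 50 and 42 times in shBrca2 and 77, 92 and 79 times in shControl. As normalized counts these were 42.2, 47.3 and 36.5 against 77.8, 77.2 and 78.1, with the 3 shControl libraries nearly level and every shBrca2 library below them. The log2 fold change was -0.89 ± 0.28 (95% interval -1.45 to -0.33), or 0.54 of the shControl level, with an adjusted p of 0.12. It was called with edgeR (adjusted p = 0.0628), with TMM factors (0.0929), with total counts (0.0959) and after the GC correction (0.0982). It was not called with the Wald test (0.113), the low-count filter (0.101) or 1 surrogate variable (0.145). Nor was Kif2c called by DESeq2 with any library left out (adjusted p from 0.151 to 0.598). Kif23, the motor of the central spindle in cytokinesis and the most abundant kinesin of the group, had 291, 329.9 and 261 against 421, 388 and 379. The groups did not overlap and the log2 fold change was -0.43 ± 0.17 (adjusted p = 0.322). Over the group 5 of 7 genes were below 0 with a median of -0.13, which was -0.24 after the GC correction and lay between -0.25 and -0.03 with each library left out.

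For the spindle and cytokinesis genes 5 of 8 were below 0 and the median was -0.05. Anln, the gene of anillin, the actin-binding scaffold of the contractile ring, had 203, 195 and 201 normalized counts in shBrca2 and 152, 123 and 141 in shControl. All shBrca2 libraries were above all shControl libraries, at a log2 fold change of 0.53 ± 0.20 (95% interval 0.14 to 0.91, adjusted p = 0.275). Racgap1, the partner of Kif23 in the centralspindlin complex, had 359.6, 357 and 385 against 399, 365 and 412. The groups overlapped and the log2 fold change was -0.09 ± 0.16 (adjusted p = 0.953). With the GC trend removed the median of the role was -0.22, and without the first shBrca2 library it was 0.02.

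**Figure D4:**
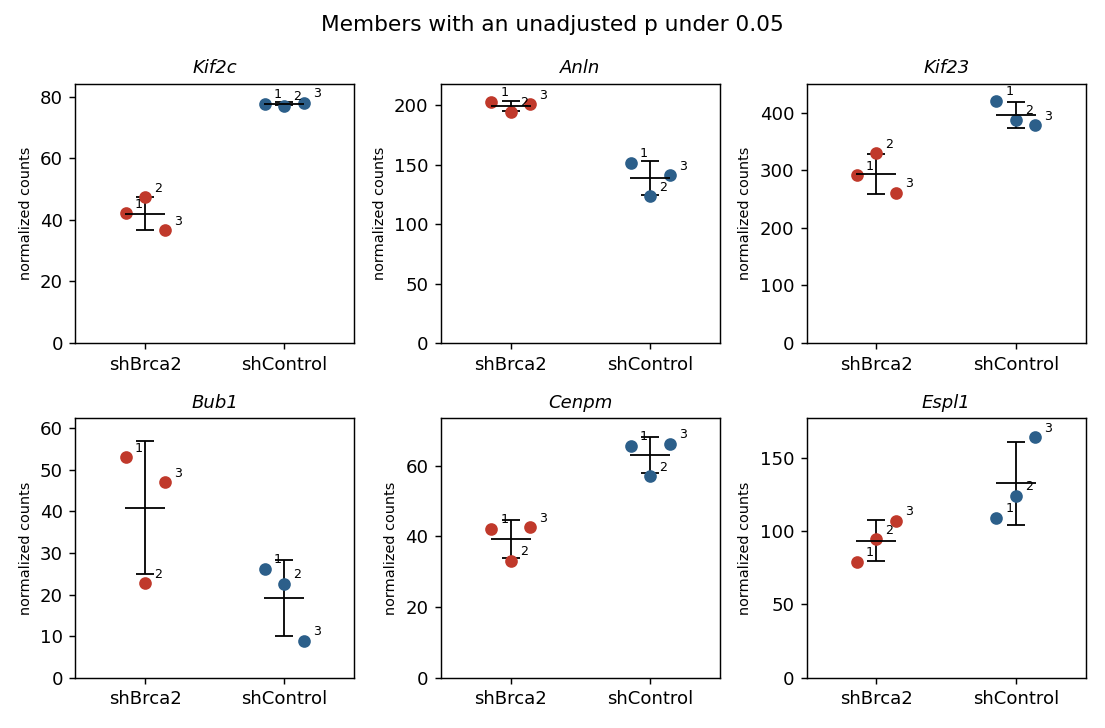
Normalized counts of the 6 genes with an unadjusted p under 0.05, 1 point for each library with its replicate number, and the mean and SD of each group in black. The groups are apart for Kif2c, Anln, Kif23, Cenpm and Espl1 and overlap for Bub1. The genes were picked by p from these same values, so groups that are apart carry no further weight.

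Of the condensin and chromosome structure genes 4 of 7 were below 0, with a median of -0.16. Top2a, the topoisomerase that untangles sister chromatids and the most abundant of the group, had 679.7, 808 and 738 normalized counts in shBrca2 and 864, 756 and 870.1 in shControl. The groups overlapped, at a log2 fold change of -0.16 ± 0.15 (95% interval -0.45 to 0.13, adjusted p = 0.876). Mki67, the gene of the proliferation marker Ki-67, which coats mitotic chromosomes, had 128, 123 and 157 against 177, 156 and 146. Here 2 shBrca2 libraries were below the shControl libraries and 1 was among them, and the log2 fold change was -0.23 ± 0.21 (adjusted p = 0.876). Without the second shBrca2 library the median of the role was 0.01.

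Several genes varied more between libraries of one group than between the groups. The spread within groups was above the 90th percentile of genes of like base mean for 12 of 60 genes (20%), against 10.1% of genes tested. They were Cks1b, Bub1, Bub1b, Mad2l1, Ttk, Cdc20, Ect2, Nusap1, Smc2, Smc4, Ncapd2 and Ncapg, a list read from the values. The within-group SD on the log2 scale exceeded the difference between the groups for 33 of 60 genes (55%), close to 56.8% of genes tested.

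Smc4, an ATPase subunit of condensin, had 108, 20.8 and 36.5 normalized counts in shBrca2 and 118, 17.6 and 8.90 in shControl, a 13.3-fold range within shControl. The first library of each group was high and the others low. The log2 fold change was 0.19 ± 1.19, and it was -0.75 without the first shBrca2 library and 2.04 without the first shControl library. Smc2, its partner ATPase, did not share this order, with 57.2, 85.1 and 53.1 against 20.2, 84.7 and 127. Its lowest and highest libraries were both shControl, and the log2 fold change was -0.24 ± 0.72. Ect2, the exchange factor that activates RhoA at the cell equator, had 255, 166 and 278 against 261, 195 and 42.5. As for Mad2l1, the third shControl library was far below the others, and without it the log2 fold change of Ect2 went from 0.49 to 0.03. Ncapd2, a regulatory condensin subunit, had 244, 75.6 and 291 against 274, 285 and 237, with the second shBrca2 library low. Ncapg, another condensin subunit, had 62.7, 73.7 and 50.5 against 21.2, 64.6 and 65.3, with the first shControl library low.

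**Figure D5:**
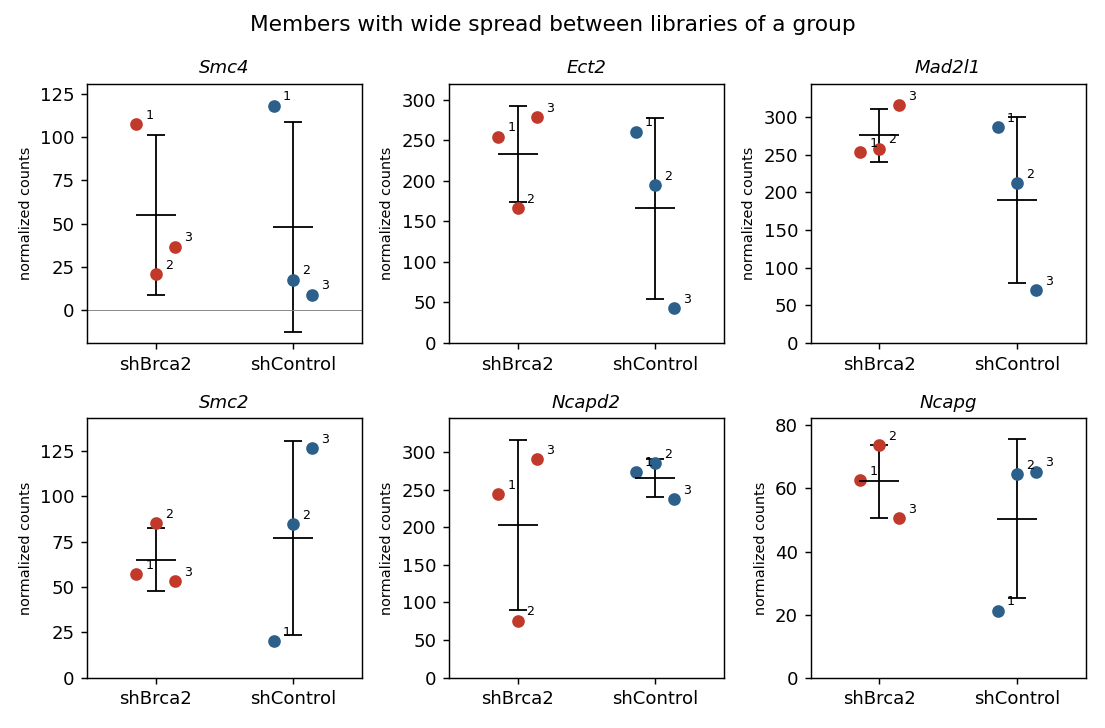
Normalized counts of 6 genes with a wide spread between libraries of a group, 1 point for each library with its replicate number, and the mean and SD of each group in black. The lowest library differs between genes. It is the third shControl library for Ect2, Mad2l1 and Smc4, the first for Smc2 and Ncapg, and the second shBrca2 library for Ncapd2.

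Over the genes of the whole table, those of low base mean left out, the first principal component took 41.1% of the variance. It set the third shControl library (0.737) apart from shBrca2 replicates 1 and 3 (-0.416 and -0.426). It did not separate the groups, since the first shControl library lay at -0.183 and the second shBrca2 library at 0.0242. Without the third shControl library the median log2 fold change of the 60 mitosis and spindle genes was -0.13. DESeq2 then called 0 of the 59 of them tested, against 1.07% of all genes tested. At an unadjusted p under 0.05 there were 4 of 59 (6.78%), against 7.15%. With any other library left out the share of members was above that of all genes tested. It was 18.6% against 9.83% without shControl replicate 1, and 8.47% against 5.63% without shControl replicate 2. Without shBrca2 replicates 1, 2 and 3 it was 12.1%, 12.7% and 10.2%, against 7.55%, 9.74% and 5.31%. Each shBrca2 library was the lowest of the 6 for 14 of 60 genes (23.3%), against 15.4%, 13.0% and 21.3% of all genes. The shControl libraries were the lowest for 4, 3 and 11 (6.67%, 5% and 18.3%), against 18.6%, 13.3% and 18.5%.

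The other genes of mitosis gave no call either. Of 138 further genes listed for kinetochore, spindle, cohesin and condensin, the anaphase-promoting complex, transcription of mitotic genes and CDK inhibition, 125 were tested, 0 were called by DESeq2, and 2 were above and 6 below 0 at an unadjusted p under 0.05 (6.4%, against 8.66%). Their median log2 fold change was -0.08, with 72 of 125 below 0. The gene with the smallest p of each list is given by value. Zwint, a kinetochore protein that anchors ZW10, had 449, 465 and 608 normalized counts in shBrca2 and 400.1, 333 and 311 in shControl, above in every library, at 0.55 ± 0.18 (adjusted p = 0.153). Fzr1, the gene of CDH1, which keeps the anaphase-promoting complex active in late mitosis and G1, had 202, 199 and 148 against 257, 289 and 262, below in every library, at -0.57 ± 0.19 (adjusted p = 0.171). Gtse1, a microtubule-binding protein of G2 and mitosis, had 114, 104 and 118 against 148, 144 and 202, at -0.55 ± 0.22 (adjusted p = 0.344). The groups of Zwint, Fzr1 and Gtse1 did not overlap, but these genes were picked by p from the same values. Of all genes tested, 10.4% were lower and 10.2% higher in shBrca2 without overlap.

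Cdkn1b, the gene of the CDK inhibitor p27, had 28.6, 28.4 and 28.7 normalized counts in shBrca2 and 8.08, 13.4 and 14.8 in shControl, without overlap, at a log2 fold change of 1.23 ± 0.46 (adjusted p = 0.282). Mybl2, the MuvB partner that binds mitotic promoters, had 17.7, 23.6 and 23.5 against 37.4, 29.4 and 42.5, also without overlap, at -0.73 ± 0.39 (adjusted p = 0.608). Ncaph2, a subunit of condensin II, overlapped, with 81.7, 107 and 69.6 against 113, 98.95 and 142, at -0.45 ± 0.25 (adjusted p = 0.653). Among 35 S phase genes tested 0 were called, 24 were below 0 and the median was -0.14, close to that of the mitosis and spindle genes. Pole, the catalytic subunit of DNA polymerase epsilon, had the smallest p there, with 76.3, 88.9 and 85.3 against 119, 122 and 122, without overlap, at -0.53 ± 0.23 (adjusted p = 0.416). By contrast, Ccnd1, the G1 cyclin D1, was called at -1.01 (adjusted p = 4.53e-05).

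The fold changes were set beside the promoter elements of the same genes. Members with a CHR had a median log2 fold change of -0.15, with 28 of 38 below 0, and those without one had -0.07, with 7 of 13 below 0. With a CCAAT box the median was -0.15, and without one it was 0.001, with 7 of 14 below 0. These are descriptions of genes that share libraries, and no test was made. Exons of 36 of the 60 genes overlap another annotated gene, mostly on the opposite strand, Kif2c, Anln, Cenpm, Aurka, Cdc25b, Ube2c and Knstrn among those described. Exons of Brca2 overlap 4 annotated genes, all on the opposite strand. Whether counting used strand is not stated, so the counts of Brca2 and of these members are uncertain to that extent. Ccnb1, Ccnb2, Kif22 and Kif4 have annotated pseudogenes that could share reads.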

How the data were processed

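Poly(A) RNA of 6 KPC libraries was measured by a variation of MARS-seq. The authors deposited raw counts per gene symbol, not normalized and not pooled. The submitters' processing notes name bcl2fastq, cutadapt, STAR 2.4.2a, HTSeq, DESeq2 and mm10, and the use of molecular identifiers or strand is not stated there. Since fragments come from the 3′ end, a longer transcript does not give more counts. Intervals cover the spread between libraries. The deposited counts were fitted over all 10616 genes with DESeq2 1.42.0 in R 4.3.3 (likelihood ratio test of group, median-of-ratios size factors, Benjamini-Hochberg adjustment, fold changes not shrunken), as in the methods of the study. An adjusted p was given to 9997 genes (base mean over 4.64). Alternatives were edgeR 4.0.16, the Wald test, TMM or total-count factors, other filters and thresholds, 1 surrogate variable (sva 3.50.0), removal of each library's loess trend on GC content (span 0.5), and each library left out.

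The members and lists were chosen with earlier results of these data known. Genes described with values were Brca2, Ccnd1, in each role the gene of highest base mean and of smallest p, the 3 genes of highest and of lowest log2 fold change, and the gene of smallest p in each further list. Ccnb1, Foxm1, Cdk1, Cdc20, Cenpf, Epcam and the genes with a wide spread were added after their values were seen. Spread within groups was the SD of log2(normalized count + 1), ranked among 201 genes of nearest base mean. Groups came from the labels' source name, and replicate numbers from accession order. Promoter windows came from RefSeq (GRCm38.p6), and GC content and exon overlap from GENCODE vM39, which need not be the annotation behind the counts. Cenpq, Kif14, Depdc1a, Pds5a, Anapc10, Anapc11, Cdc23, Cdc26 and Cdkn1c were listed but not analysed here.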

Additional observations from a re-analysis of the deposited data

How the results depend on the processing

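The count of mitosis and spindle genes called was 0 as reported. It stayed at 0 with the Wald test, the low-count filter, no filtering by base mean, both other thresholds and 1 surrogate variable. It was 1, Kif2c each time, with edgeR, TMM factors, total counts and the GC correction (9092, 7116, 7733 and 6703 genes tested, against 9997). Fewer genes were also tested with the Wald test (9174), the low-count filter (7025) and 1 surrogate variable (7323), where the count was 0. With each library left out it ranged from 0 to 1 (Cdc20 without the second shBrca2 library). The median log2 fold change was -0.24 after the GC correction, -0.11 with 1 surrogate variable, and from -0.13 to -0.10 with a library left out. The cause was not tested. Of 60 genes, 39 to 47 lay below 0 over these settings. Cenpa, at -0.03 as reported, ranged from -0.075 to 0.015 with a library left out and was above 0 without shBrca2 replicate 2 or shControl replicate 2. Brca2 was not called without shBrca2 replicate 2 or 3 or shControl replicate 2 (adjusted p = 0.152, 0.233 and 0.371, DESeq2), at log2 fold changes of -1.51, -1.63 and -1.46. Zwint was called at 0.66 without the first shControl library. Of all genes tested 127 were called, and 81, 47 and 55 without shBrca2 replicate 1, shBrca2 replicate 3 and shControl replicate 2. No paired analysis was possible because the labels number no replicates. With 3 libraries a group, depth limits genes such as Cenpf, Cdk1 and Knstrn most.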

Other observations

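Wide spread between libraries of a group was also seen in genes outside the 60, all named after their values were seen. Ncapg2, the condensin II counterpart of Ncapg, had 80.4, 21.7 and 68.7 normalized counts in shBrca2 and 87.9, 23.5 and 14.8 in shControl. Stag2, a cohesin subunit, had 36.8, 18.0 and 26.1 against 45.5, 10.1 and 13.8. In both genes the first library of each group was the highest, as for Smc4 in shBrca2 and in shControl. Rrm2, a subunit of ribonucleotide reductase, had 373, 382 and 413 against 469, 382 and 172, with the third shControl library the lowest, as for Ect2 and Mad2l1. No test was made of these orders.\n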
